A study of Mus musculus with 3 samples.

Results

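The surface antigens and receptors by which blood stem cells are recognised and sorted were followed through 3 mouse tissues. The group holds 9 genes, Kit, Cd34, Ly6a, Flt3, Slamf1, Cd48, Procr, Tek and Thy1. Their probes were taken as every probe of the array whose gene name was one of these symbols or an alias, a match without measured values. The 9 genes themselves were chosen with earlier results of these data known. The rule found 13 probes on 22 spots per array, out of 41174 gene probes, and all 13 carried the current symbol. The array names 19712 genes in all. Kit, Flt3, Cd34, Ly6a and Procr had 1 probe each, and Tek, Thy1, Slamf1 and Cd48 had 2 probes each.

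The series set adult liver, fetal liver and bone marrow of C57BL/6 mice side by side. Adult liver came from animals of 12 weeks and fetal liver from day 13.5 of gestation. Whether the bone marrow donors were also 12 weeks old is not settled by the wording of the labels, and the labels give neither sex nor the number of animals. Total RNA of each tissue was hybridised to 1 one-colour Agilent array, so there are no replicates and no test, and every difference below describes 3 RNA samples.

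Kit and Flt3 are receptor tyrosine kinases that carry growth signals in blood stem and progenitor cells, and Tek is the angiopoietin receptor of endothelial cells that is also found on stem cells. Cd34 is a sialomucin of progenitors and vessels. Ly6a (Sca-1), Thy1 and Cd48 are held in the membrane by a lipid anchor. Slamf1 and Cd48 belong to the SLAM family of immune receptors, and a cell that carries Slamf1 without Cd48 is the textbook mouse stem cell. Procr binds protein C on endothelium and is also a marker of stem cells. Several of these antigens are shared with mature cells, such as Thy1 with T cells, Kit with mast cells, Cd48 with most leukocytes and Tek with endothelium.

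All arrays were read in the same way, and 52.6% of the gene spots of adult liver, 58.7% of fetal liver and 58.8% of bone marrow were well above background. Each array was scaled to the 75th percentile of its gene spots, a signal of 296 in adult and 387 in fetal liver, against 894 in bone marrow, and its lowest signal well above background was 18.9, 15.0 and 23.7. A processed signal is printed as deposited, on the scale of its own array, and a fold is taken after that scaling. Markers fitted the labelled tissues. All 6 hepatocyte markers were brighter in adult liver than in fetal liver by 4-fold or more, and 4 of 4 fetal hepatoblast markers at least 4-fold higher in fetal liver than in either other tissue. All 5 neutrophil markers were at least 4-fold higher in bone marrow than in fetal liver.

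The size of a difference was read against 3 measures of technical spread, since spread between animals was not measured. Probes printed 8 or more times had a median SD of 0.07 in adult liver and 0.06 in fetal liver, with 0.05 in bone marrow, on the log2 scale over spots of 1 array. Probes of the same gene differed more, with a median range of the log2 difference of 0.51 between fetal and adult liver and 0.81 between fetal liver and bone marrow. The scanner software also gives each signal an error, which is used below for single spots. A difference of at least 4-fold, 2 on the log2 scale, was counted, and where a probe was not well above background in 1 tissue only a bound could be formed, marked by the words "at least". In whole tissue, fewer cells of a type and less RNA per cell cannot be told apart.

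The 9 genes did not move as a block. Kit, Cd34 and Slamf1 exceeded adult liver at least 4-fold in fetal liver, and Ly6a was at least 4-fold lower. That is 4 of 9 members in a comparison where 26.2% of 14185 genes differed to that degree, 12.0% with fetal liver higher and 14.2% with adult liver higher. Between the tissues that form blood, Ly6a, Thy1 and Cd48 were at least 4-fold higher in bone marrow and no member was so in fetal liver, against a background of 17.6% of 14680 genes past 4-fold, 8.32% in the first direction and 9.29% in the second. Bone marrow exceeded adult liver at least 4-fold for 6 members (Kit, Cd34, Slamf1, Ly6a, Thy1 and Cd48), and no member was lower to that degree. Of 14245 genes 33.8% differed at least 4-fold there, 15.0% with bone marrow higher and 18.8% with adult liver higher. The median log2 difference of the members was 0.09 between fetal and adult liver (0.05 for all genes), -0.81 between fetal liver and bone marrow (0.26 for all) and 3.02 between bone marrow and adult liver (-0.09 for all).

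**Figure D1:**
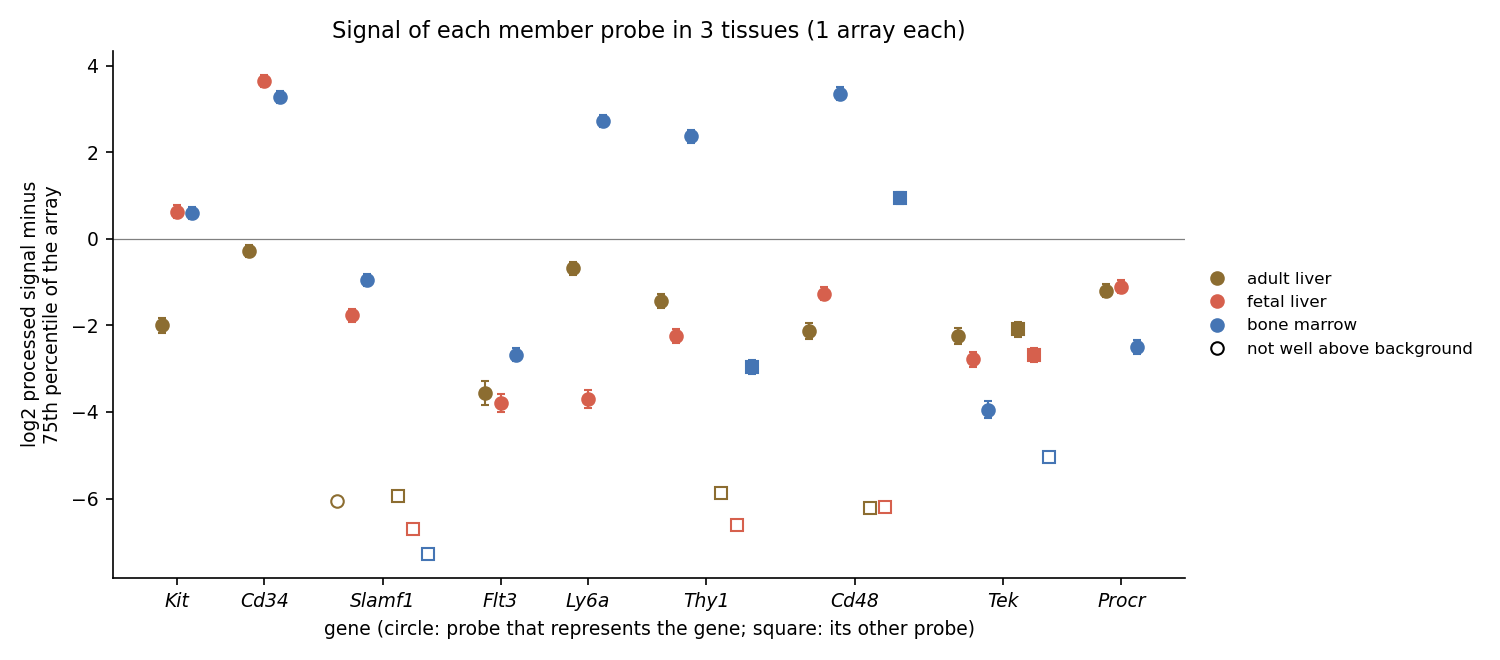
Each point is the log2 processed signal of 1 probe on 1 array minus the 75th percentile of that array, for adult liver, fetal liver and bone marrow. Bars show the error given by the scanner software, open symbols are signals not well above background, and heights are to be compared within a probe only. Kit and Cd34 have fetal liver and bone marrow side by side above adult liver, whereas Ly6a, Thy1 and Cd48 have bone marrow alone at the top.

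Kit, the receptor for stem cell factor, is the most often measured member, since its probe (chr5:76052287-76052346, plus strand, mm9) is printed 10 times on each array. Its signal averaged 74.2 in adult and 599 in fetal liver, against 1347 in bone marrow. The 10 spots ranged from 66.6 to 88.5, from 538 to 623 and from 1240 to 1400, so the spots of the 3 arrays did not overlap before scaling. The SD over spots was 0.13, 0.07 and 0.05 on the log2 scale. After scaling, fetal liver and bone marrow held the same position, at 0.63 and 0.59 above the 75th percentile on the log2 scale, and adult liver lay at -1.996. Kit was 6.17-fold above adult liver in fetal liver and 6.01-fold above it in bone marrow. Fetal liver and bone marrow differed by 1.03-fold, a log2 difference of 0.04 with a scanner error of 0.20, so no order can be read between them.

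Cd34 (probe chr1:196787392-196787451, plus strand, mm9) gave signals of 243 in adult liver and 4840 in fetal liver, with 8650 in bone marrow. Fetal liver was 15.2-fold above adult liver, and 3.46% of genes lay as far or further in that direction. Bone marrow was 11.8-fold above adult liver. The log2 difference between fetal liver and bone marrow was 0.37, or 1.29-fold, against a scanner error of 0.20 and a median range of 0.81 between probes of 1 gene.

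Slamf1 (CD150), an immune receptor that binds itself on neighbouring cells, was not detected in adult liver. Its probe in chr1:173730343-173730402 (plus strand, mm9) read 4.45 there, not well above background, 114 in fetal liver and 463 in bone marrow. The gene exceeded adult liver at least 4.61-fold in fetal liver and at least 8.11-fold in bone marrow. Bone marrow exceeded fetal liver by 1.76-fold. A second probe, whose ends lie 4319 bases apart in chr1:173718133-173722451 and which therefore crosses an intron, was not well above background on any array, with signals of 4.81, 3.71 and 5.76. The Slamf1 values therefore rest on 1 spot per array.

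The largest gap between the log2 differences of Kit and Cd34 was 1.30, and among the pairs of members well above background on all 3 arrays only Tek and Procr lay nearer, at 0.63. Slamf1 has only bounds against adult liver, so its distance from the other members is not given. The fetal-to-marrow direction of Kit and Cd34 depended on the scaling. With median scaling the log2 difference of fetal liver minus bone marrow was -0.38 for Kit and -0.04 for Cd34, and with the spike-in control probes of the array it was -2.19 and -1.86. The excess of Kit, Cd34 and Slamf1 over adult liver kept its direction in every alternative that gave a value, although Kit came to 1.91 against adult liver for both fetal liver and bone marrow with normexp background correction, just under the 4-fold line. Slamf1 was under it too, at 0.94 and 1.39 with normexp and at 1.05 and 1.85 in the authors' deposited table, which holds the errors of the signals.

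The sequences before the starts of these 3 genes are shown because they are the members that exceeded adult liver at least 4-fold in fetal liver. Each is the 250 bases before the annotated start (RefSeq, GRCm38.p6, plus strand), Kit in chr5:75574737-75574986, Cd34 in chr1:194938571-194938820 and Slamf1 in chr1:171766882-171767131. Capitals mark matches to motifs of factors that act in blood cells, searched on both strands. The motifs were AGGAAG for ETS, AGATAA and TGATAA for GATA, and TGTGGT and TGCGGT for RUNX.
Kit promoter: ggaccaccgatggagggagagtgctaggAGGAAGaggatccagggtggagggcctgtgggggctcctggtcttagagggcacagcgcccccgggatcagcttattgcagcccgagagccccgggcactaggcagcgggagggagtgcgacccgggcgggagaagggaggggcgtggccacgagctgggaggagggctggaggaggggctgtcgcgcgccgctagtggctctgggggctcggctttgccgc
Cd34 promoter: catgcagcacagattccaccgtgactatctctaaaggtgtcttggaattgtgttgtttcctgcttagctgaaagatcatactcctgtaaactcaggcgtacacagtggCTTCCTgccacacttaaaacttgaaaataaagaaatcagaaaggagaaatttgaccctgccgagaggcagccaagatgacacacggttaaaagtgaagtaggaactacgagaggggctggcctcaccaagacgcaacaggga
Slamf1 promoter: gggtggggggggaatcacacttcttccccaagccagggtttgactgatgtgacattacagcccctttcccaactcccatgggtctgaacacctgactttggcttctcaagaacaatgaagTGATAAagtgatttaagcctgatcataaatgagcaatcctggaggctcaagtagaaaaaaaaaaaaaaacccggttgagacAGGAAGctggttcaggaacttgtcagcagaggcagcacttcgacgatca
Each of the 3 held the ETS letters once, 222 bases before the start in Kit, 142 in Cd34 (on the minus strand, so that it reads CTTCCT) and 49 in Slamf1. Among 32851 mouse promoters of this length 29.5% hold those letters. Slamf1 also held TGATAA, 130 bases before its start, and 16.6% of promoters hold 1 of the GATA motifs. Of the 7 members with a promoter in the table, Flt3 and Cd48 held a RUNX match and no ETS match (18.6% of promoters hold a RUNX motif), and Tek and Procr held none of the 3 motifs. A match of letters describes the sequence and is not a measured binding site.

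Flt3, the receptor whose ligand drives early lymphoid and dendritic development, lay near background in both livers. The signal of its probe (chr5:148159595-148159654, minus strand, mm9) was 25.0 in adult and 27.9 in fetal liver, against 140 in bone marrow. The adult liver spot was only 1.32 times the lowest signal well above background on its array, and the fetal liver spot 1.86 times. Bone marrow was 2.17-fold above fetal liver and 1.85-fold above adult liver, both under 4-fold. The log2 difference of fetal minus adult liver was -0.23, smaller than the scanner error of 0.35. That of fetal liver minus bone marrow ranged from -0.12 with normexp to -3.35 with spike-in scaling, and that of bone marrow minus adult liver was -0.14 with normexp, so the size of the marrow excess is not settled by these arrays.

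Kit and Flt3 ligands did not follow one pattern. Kitl, stem cell factor itself, gave 22.5 in adult liver and 317 in fetal liver, with 370 in bone marrow. It was 10.8-fold above adult liver in fetal liver, 5.44-fold above it in bone marrow, and 1.98-fold higher in fetal liver than in bone marrow, so ligand and receptor were both lowest in adult liver. The adult liver signal of Kitl lay near 18.9, the lowest well above background on that array, so the sizes of its folds against adult liver are uncertain. Flt3l gave 122, 117 and 410, which after scaling differed by at most 1.52-fold between any pair of tissues. Of the 15 genes of receptor kinase ligands and signalling, 14 could be compared between fetal and adult liver. Only Kitl exceeded adult liver at least 4-fold, and Ptprb, a phosphatase of endothelial cells that acts on Tek, was 11.8-fold higher in adult liver. Against fetal liver, 2 were at least 4-fold higher in bone marrow, Ptpn6, a phosphatase that restrains Kit, at 7.80-fold, and the kinase Lyn at 4.41-fold.

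Ly6a (Sca-1), the antigen that defines mouse stem cells together with Kit, had the widest range among the members well above background on all arrays. Its probe (chr15:74825553-74825612, minus strand, mm9) gave 184 in adult and 29.9 in fetal liver, against 5910 in bone marrow. No other member was lower in fetal than adult liver by 4-fold, and Ly6a was so by 8.05-fold. Bone marrow was 85.6-fold above fetal liver, a distance that 1.18% of genes reached in either direction, and 10.6-fold above adult liver. The fetal liver spot was only 1.99 times the lowest signal well above background on its array. The sizes of the folds against fetal liver, and so the width of the range, are therefore uncertain. The order marrow, adult liver, fetal liver held in every alternative, but the log2 difference of fetal minus adult liver shrank from -3.01 to -1.78 with normexp, which is under 4-fold.

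The Ly6 family of small lipid-anchored proteins was compared with Ly6a. Their probes lie with that of Ly6a in a stretch of 871 kb of chromosome 15, from 74557085 to 75428543 (mm9). Of 10 genes that could be compared, 7 were at least 4-fold higher in bone marrow than in fetal liver and none passed 4-fold the other way. Ly6d, an early B-lineage antigen, gave 2070 in adult liver and 16.2 in fetal liver, with 21600 in bone marrow, a 577-fold difference between marrow and fetal liver. The fetal liver signal of Ly6d lay near 15.0, the lowest well above background on that array, so the sizes of its folds against fetal liver are uncertain. The monocyte and endothelial antigen Ly6c1 gave 16.9 (not well above background), 44.8 and 32000, 309-fold between marrow and fetal liver. Against adult liver, 3 of 9 were at least 4-fold lower in fetal liver (Ly6d, Ly6e and Gpihbp1), and the other 6 were within 4-fold. Bone marrow exceeded adult liver at least 4-fold for 4 of 10, and 1 passed 4-fold the other way, Gpihbp1, which carries lipoprotein lipase across capillaries, at 15.8-fold. Ly6 genes are close relatives, and how far their probes read each other's RNA was not tested.

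Thy1, a lipid-anchored protein of T cells, neurons and some stem cells, followed the marrow pattern. Its main probe (chr9:43856600-43856659, plus strand, mm9) gave 109 in adult and 81.8 in fetal liver, against 4600 in bone marrow. Bone marrow was 24.3-fold above fetal liver and 14.0-fold above adult liver, and adult liver 1.74-fold above fetal liver. The other probe (chr9:43854991-43855436) spans 446 bases and so crosses an intron. It was not well above background in adult liver (5.03) or fetal liver (3.96) and read 114 in bone marrow, which makes marrow at least 3.29-fold above fetal liver and at least 1.997-fold above adult liver. Both probes thus put marrow on top, the second only as a bound.

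Cd48, a ligand of the SLAM receptor Cd244a that most leukocytes carry, had the largest excess of bone marrow over adult liver among the members well above background on all arrays. Its main probe (chr1:173635107-173635165, plus strand, mm9) gave 67.3 in adult liver and 160 in fetal liver, with 9130 in bone marrow. Bone marrow was 24.7-fold above fetal liver and 44.9-fold above adult liver, and fetal liver 1.82-fold above adult liver. The second probe (chr1:173625933-173625992) was not well above background in adult liver (3.99) or fetal liver (5.30) and read 1710 in bone marrow, at least 49.3-fold above fetal liver and at least 30.0-fold above adult liver. The 2 probes disagree on whether Cd48 was detected in the livers, and both put marrow far above them.

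Slamf1 and Cd48, the pair read together in stem cell sorting, therefore stood apart from each other. Between fetal liver and bone marrow the log2 difference was -0.81 for Slamf1 and -4.63 for Cd48, a gap of 3.81. Each value is the difference of 1 probe between arrays, so the levels of the 2 genes are not set against each other. They lie in a cluster, since 10 genes of the SLAM family and its adaptors, these 2 included, have their probes on chromosome 1 from 172213404 to 174512126 (mm9). Of the 8 other genes of that stretch, 6 were at least 4-fold higher in bone marrow than in fetal liver and none passed 4-fold the other way. The list of SLAM receptors, partners and adaptors is a different set of 10, without Slamf1 and Cd48 and with Cd2 and Sh2d1a from other chromosomes. In that list 8 were at least 4-fold higher in bone marrow than in fetal liver and 2 were within 4-fold. Cd244a, the Cd48 receptor, gave 10.2 (not well above background), 32.6 and 1240 in adult liver, fetal liver and bone marrow, 16.5-fold between marrow and fetal liver. Cd2, another known partner of Cd48, was seen in bone marrow alone (675 against 6.99 and 6.02, not well above background), at least 19.5-fold above fetal liver. Slamf6 and Slamf9 lay within 4-fold, at 1.72-fold and 2.15-fold higher in marrow, next to Slamf1 at 1.76-fold.

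**Figure D2:**
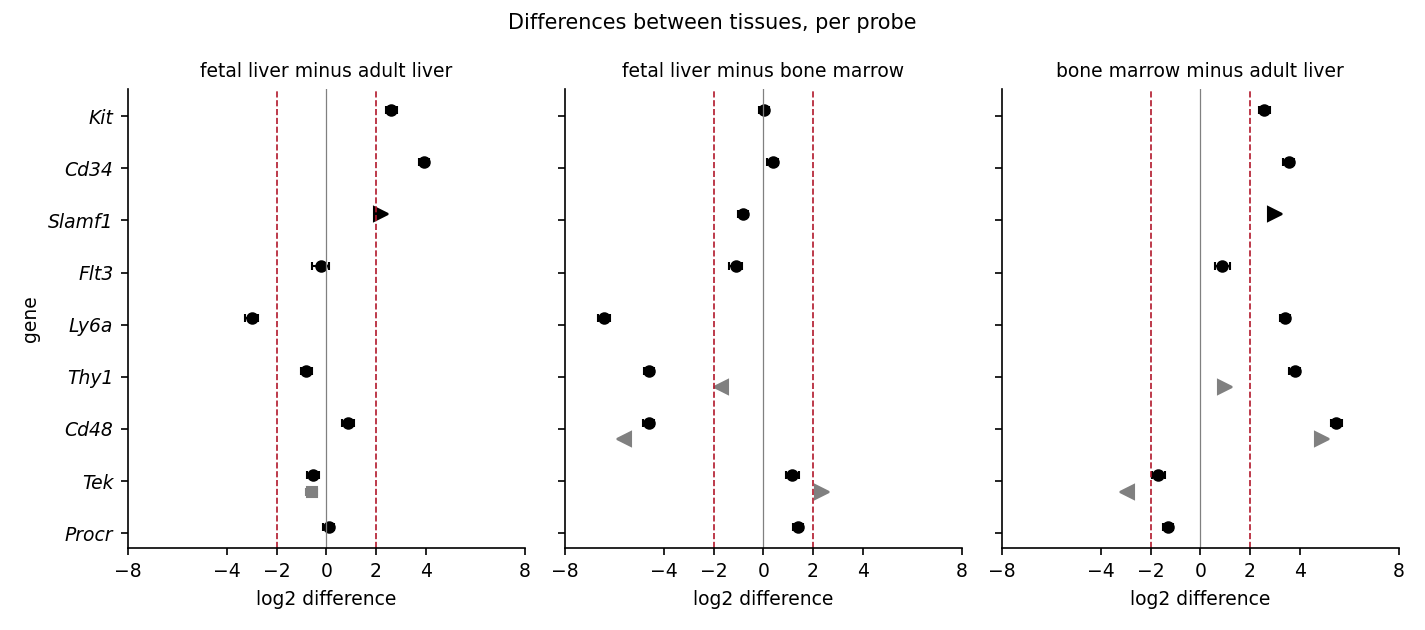
Log2 differences of each member between the 3 pairs of tissues, 1 panel per pair, with the scanner error as bars and dashed lines at 4-fold. Circles are the probe that represents the gene, grey symbols its other probe where a difference could be formed, and triangles are lower bounds that point away from 0. The grey triangles of Tek instead take its dim marrow signal as it stands. Kit, Cd34 and Slamf1 lie right of the upper line against adult liver and near 0 against bone marrow, and Ly6a, Thy1 and Cd48 lie left of the lower line against bone marrow.

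Markers of mature blood cells were set beside the Ly6a, Thy1 and Cd48 values. Of 7 T and NK cell markers 4 were at least 4-fold higher in bone marrow than in fetal liver and 3 were within 4-fold. Their summed signal, in units of each array's 75th percentile, was 1.14 in adult and 1.52 in fetal liver, against 22.7 in bone marrow. Nkg7, which read 15000 in bone marrow, made up most of the marrow sum. Of the markers within 4-fold, Lck and Cd3e were 2.58-fold and 1.45-fold higher in bone marrow than in fetal liver, and Cd4 was 1.28-fold lower. In fetal liver Cd3d, Cd3g and Cd8a were not well above background, and in adult liver Cd3g and Cd8a were not, while Cd3d, a subunit of the T cell receptor complex, read 2140 in bone marrow. All 4 pan-leukocyte markers passed 4-fold in the same direction, with sums of 2.71, 14.0 and 203, as did all 5 B lineage markers, with sums of 1.40, 1.67 and 75.7. Coro1a, a leukocyte actin regulator, made up most of the pan-leukocyte sums in fetal liver and bone marrow. Thy1 is also carried by fibroblasts, and of 6 stellate and fibroblast markers 5 could be compared, 1 at least 4-fold higher in bone marrow (Acta2) and 1 at least 4-fold lower (Col1a1), with sums of 47.0, 62.5 and 33.6. Ptprc (CD45), which all leukocytes carry, gave 219, 391 and 26186 and was 29.0-fold higher in marrow than in fetal liver, beside 24.7-fold for Cd48. Between the livers Ly6a and Thy1 were 8.05-fold and 1.74-fold lower in fetal liver, and the markers went both ways. Coro1a was 8.66-fold and the T cell kinase Lck 5.34-fold higher in fetal liver. Ptprc and Laptm5 were 1.36-fold and 1.72-fold higher there, and Cd53 at least 1.54-fold. Of the T and NK cell markers 5 could be compared between the livers, with a median 1.66-fold lower in fetal liver. The part of mature cells in the Ly6a, Thy1 and Cd48 values was not tested.

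Mast cells carry Kit for life. Of 7 mast cell and basophil markers 5 were at least 4-fold higher in bone marrow than in fetal liver. Between the livers none of the 4 that could be compared passed 4-fold. Their sums were 1.03 in adult liver and 2.72 in fetal liver, with 58.1 in bone marrow. Hdc, which read 36000 in bone marrow, made up most of the marrow sum, so the sum does not measure the share of mast cells. Cma1, of the same list, was only 1.71-fold higher in bone marrow than in fetal liver. Cpa3, a protease of mast cells and basophils, was 24.7-fold higher in bone marrow than in fetal liver. Tpsb2, a mast cell tryptase, went the other way and was well above background in fetal liver alone (15.5, 17.6 and 11.9). Fetal liver was at least 1.72-fold above bone marrow for it, with a signal near the lowest well above background on that array, 15.0. The share of mast cells in the Kit signal was not tested.

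Tek and Procr, the endothelial receptors of the group, were detected in all 3 tissues and lay within 4-fold between the livers. The representative Tek probe (chr4:94408487-94408546, plus strand, mm9) gave 62.2 in adult and 56.2 in fetal liver, against 58.0 in bone marrow. Adult liver was 1.45-fold above fetal liver and 3.24-fold above bone marrow, and fetal liver 2.24-fold above bone marrow. The second probe (chr4:94540861-94540919), with the 2 probes covering 132433 bases of chromosome 4 from end to end, gave 69.6, 60.1 and 27.3, the last not well above background. By that probe adult liver exceeded fetal liver by 1.51-fold, and bone marrow was 5.09-fold below fetal liver and 7.70-fold below adult liver. These folds take the dim marrow signal of 27.3 as it stands, with a scanner error of 22.8%, so they are not lower bounds. The probes thus gave the same order, and only the second passed 4-fold. The mean over both probes gave a log2 difference of -2.32 for bone marrow minus adult liver, past the 4-fold line.

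Procr (probe chr2:155580945-155581004, plus strand, mm9) gave 129 in adult liver and 180 in fetal liver, with 158 in bone marrow. Fetal and adult liver differed by 1.07-fold, a log2 difference of 0.09 within the scanner error of 0.21. Fetal liver was 2.63-fold and adult liver 2.47-fold above bone marrow. The direction between fetal liver and bone marrow did not hold in all scalings for these genes, since with the spike-in probes the log2 difference of fetal liver minus bone marrow was -1.07 for Tek and -0.83 for Procr. Without any scaling it was -0.05 for Tek and 0.19 for Procr. The direction against adult liver turned as well, with log2 differences of bone marrow minus adult liver of 1.01 for Tek and 1.41 for Procr with the spike-in probes.

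Endothelial markers were set beside these values. All 8 were well above background on every array, none differed 4-fold between fetal and adult liver, and 3 (Cdh5, Kdr and Egfl7) were at least 4-fold higher in fetal liver than in bone marrow. Their summed signal was 29.4 in adult and 31.2 in fetal liver, against 6.02 in bone marrow. Kdr, a receptor for vascular growth factor, gave 2232, 1640 and 382 and was 9.92-fold higher in fetal liver than in marrow. Cd34, also carried by endothelium, was 15.2-fold above adult liver in fetal liver. The part of endothelial cells in the Tek, Procr and Cd34 values was not tested.

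Tek and Procr ligands had patterns of their own. Of the 5 genes of the protein C pathway, 3 were at least 4-fold lower in fetal than adult liver, and 2 passed 4-fold in each direction between fetal liver and bone marrow. Angpt2, an angiopoietin, differed by at most 1.38-fold between tissues (61.4, 80.4 and 135), and Angpt1, the main activator of Tek, was well above background only in bone marrow, at 34.4. After scaling, that Angpt1 signal lay under the lowest signal well above background in either liver, so no fold could be formed. Proc, the protein C that Procr binds, gave 65300 in adult liver and 8330 in fetal liver, with 104 in bone marrow, a drop of 10.2-fold from adult to fetal liver and of 185-fold from fetal liver to marrow. Thbd, thrombomodulin, which acts with Procr in protein C activation, ran the other way and was 6.55-fold higher in bone marrow than in fetal liver (180, 125 and 1890). Procr, with 1.07-fold between the livers and 2.63-fold between fetal liver and marrow, followed neither.

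**Figure D3:**
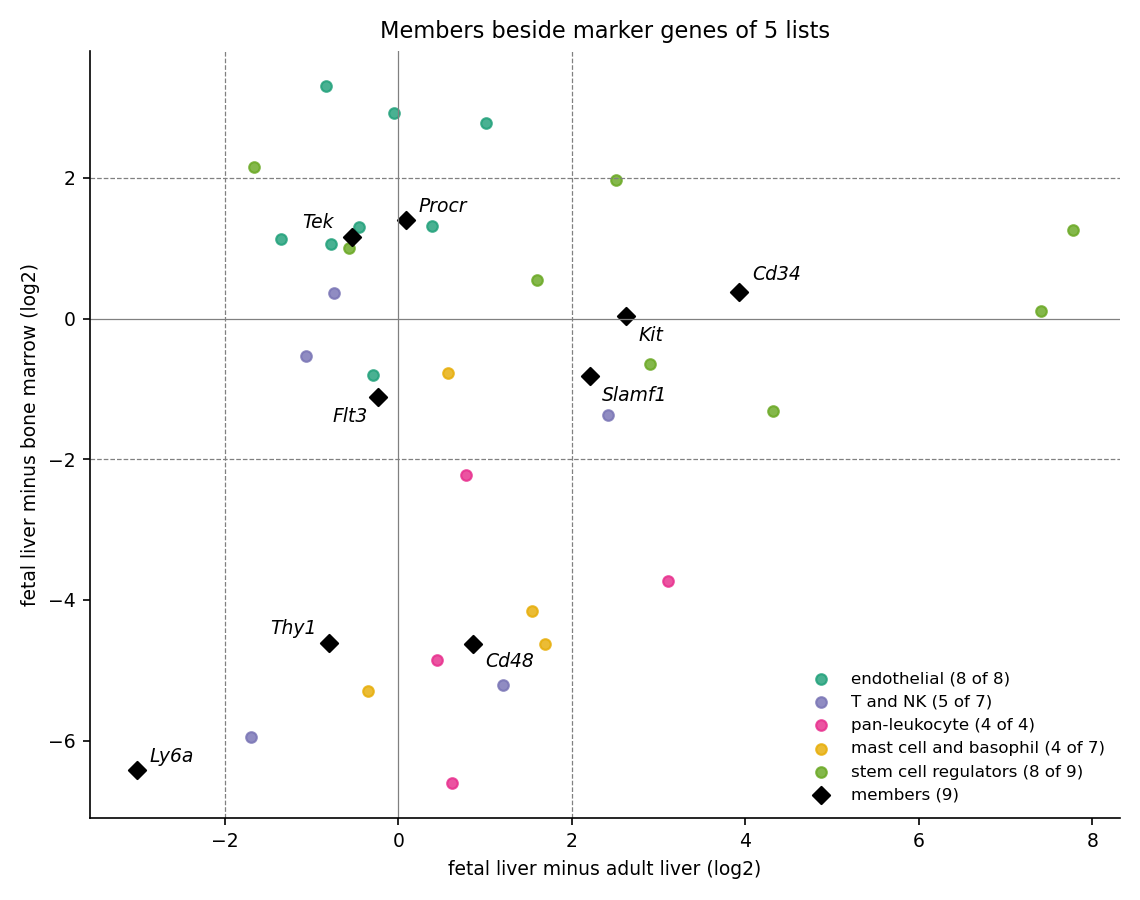
Each point is 1 gene, with its log2 difference of fetal minus adult liver on the horizontal axis and of fetal liver minus bone marrow on the vertical axis, members as black diamonds and marker genes of 5 lists in colour, bounds drawn at their value. Numbers in the legend give how many genes of a list could be drawn, and dashed lines mark 4-fold. Tek and Procr lie among endothelial markers, Cd48 and Thy1 lie at the height of pan-leukocyte and mast cell markers, and Kit and Cd34 lie to the right near the line of no difference from bone marrow.

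Transcription factors known as stem cell regulators were set beside Kit, Cd34 and Slamf1. Of 8 that could be compared, 5 were higher in fetal liver than adult liver by 4-fold or more (Meis1, Gata2, Lmo2, Myb and Tal1). Between fetal liver and bone marrow 1 of 9, Hlf, passed 4-fold, higher in fetal liver. Hlf was highest in adult liver, however (1400, 578 and 299), and 3.17-fold lower in fetal liver than there. Myb gave 5.13 (not well above background), 4181 and 8993, with fetal liver at least 169-fold above adult liver and 1.07-fold above bone marrow. Several of these factors also act in red cell precursors, as Tal1 does, which gave 90.1, 25800 and 24800. All 5 megakaryocyte markers and 4 of 5 erythroid markers were likewise at least 4-fold above adult liver in fetal liver and within 4-fold between fetal liver and bone marrow. Progenitors of those lineages carry Kit and Cd34 too, and their part in the values was not tested.

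Further surface genes of stem and progenitor cells were counted from a list of 24. Of 23 that could be compared, 9 were higher in fetal liver than adult liver by 4-fold or more and none lower. Cd24a, which red cell precursors also carry, was 445-fold higher (96.5, 56100 and 133000). Against fetal liver 7 of 24 were at least 4-fold higher in bone marrow and none lower. Csf3r, the receptor of granulocyte growth factor, was 44.3-fold higher in bone marrow, and Il7r, the interleukin 7 receptor of lymphoid progenitors, at least 40.7-fold. Bone marrow exceeded adult liver at least 4-fold for 20 of the 24, and Eng alone passed 4-fold the other way, at 5.62-fold.

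How ordinary each member's pattern was varied widely. Likeness was taken over the 3 arrays, as the largest gap between the log2 differences of 2 genes, among the 11688 genes detected well above background in all 3 tissues, so Slamf1 was not included. For Kit 121 genes lay within 0.5, nearest Lin9, Asf1a and Tmem121, and for Cd34 63 genes, nearest Wdr76, Dut and Eef2k. Thy1 had 17 genes within that distance, among them Fgl2 and Gca. Cd48 had 4, of which Myo1f, Isg20 and Ptprc were nearest. Ly6a had none, and its nearest genes were Ccl5 at 0.55, Plbd1 at 0.70 and Jaml at 0.87. Its fetal liver signal lay near background, so these distances are uncertain. Flt3 had 349 (nearest Tmem178, Tmprss3 and Chmp2a), Procr 389 (Dnajc11, Dhx33 and Hdac6) and Tek 469 (Cwf19l1, Coq2 and 3110045C21Rik). The patterns of Flt3, Procr and Tek were thus shared by many genes in these 3 samples, and those of Ly6a and Cd48 by few or none.

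Contrasts with bone marrow are those that scaling moves most. The signal of bone marrow was brighter as a whole, with a 75th percentile of 894 against 387. The median log2 difference, over all genes, of fetal liver minus bone marrow was 0.26 as reported, -0.16 with median scaling, -0.97 without scaling and -2.02 with the spike-in probes. The genes past 4-fold split into 1364 higher in fetal liver and 1222 higher in bone marrow as reported, 1000 and 1580 with median scaling, 586 and 2944 without scaling and 326 and 7295 with the spike-in probes, and under the last 50.8% of the genes were higher in bone marrow. Ly6a, Thy1 and Cd48 remained at least 4-fold higher in bone marrow under each of these scalings, while Flt3 and Slamf1 joined them without scaling (log2 -2.33 and -2.02), and Kit as well with the spike-in probes. The shift of bone marrow against adult liver in the spike-in probes themselves was -1.11 on the log2 scale with an SD of 0.76 over 10 probes, so that scale is uncertain.

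**Figure D4:**
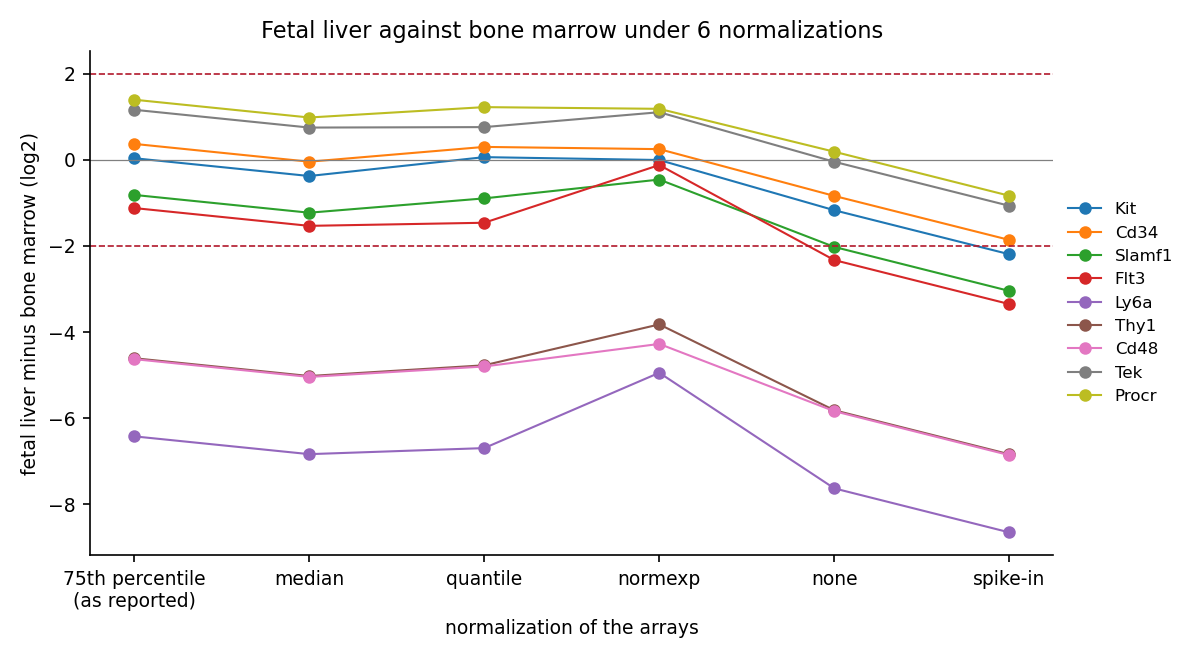
The log2 difference of fetal liver minus bone marrow of each member under 6 normalizations of the arrays, with dashed lines at 4-fold. Ly6a, Thy1 and Cd48 stay below the lower line in all 6, and Kit and Cd34 move from 0.04 and 0.37 as reported to -2.19 and -1.86 with the spike-in probes.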

How the data were processed

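Each array held 45018 spots, 43379 of them for genes. Agilent Feature Extraction 10.5.1.1 read the spots, per the submitters' processing notes. Per the file headers, the processed signal intensity was background-subtracted and arrays were not brought to a common scale. A table that the authors deposited holds raw intensity, normalized ratio and fold ratio columns for each array. On all 45018 spots of an array its raw column matched the signal's error estimate to 1%, so it served only as an alternative.

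From the processed signals, log2 minus the 75th percentile of the gene spots of each array was computed (pandas 2.3.3 and numpy 2.4.6, Python 3.11.15). Control spots and outlier spots (75 in adult liver, 71 in fetal liver, 80 in bone marrow) were left out, and spots of a probe were averaged on the log2 scale. A gene was represented by the probe well above background on most arrays, ties going to the brightest. Of the probes 79.4% were named, through accessions or symbols and a RefSeq table. A bound uses the higher of the dim probe's own value and the lowest scaled signal well above background on that array, and where both tissues were dim or the bound was under 1 no fold is given. No gene spot was saturated. Probe positions are those of the array files (mm9), promoters are from RefSeq (GRCm38.p6), and the builds were not converted. With 1 array per tissue, p-values and SDs across arrays were not computed, and the number of arrays limits the precision.

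Described were all 9 members, and from each list the gene with the largest difference of at least 4-fold in each direction and up to 3 partners of a member. Genes that fall outside this, such as Lyn, Slamf6, Slamf9, Ly6e, Cdh5, Egfl7, Cpa3, Tpsb2, Hdc, Cma1, Cd3e, Cd4, Laptm5, Meis1, Gata2, Lmo2 and Ptprc, were named after their values were seen. Members and lists were chosen with earlier results of these data known. The lists held 72 pathway genes and the markers of 12 cell types or states, and a few of these genes are not reported here. Alternatives were 4 other scalings, normexp (limma 3.58.1 in R 4.3.3, offset 50), quantile normalization, the deposited table, other probe choices, other filters and other folds.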

Additional observations from a re-analysis of the deposited data

How the results depend on the processing

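Of 78 counts of members under 13 alternatives, 70 stayed within 1.5 times the reported count. Members at least 4-fold higher in bone marrow than in fetal liver numbered 3 as reported, 5 without scaling and 6 with spike-in scaling. With normexp, those higher in fetal than in adult liver numbered 1 (3 as reported) and those higher in adult liver 0 (1 as reported). Averaging all probes gave 1 member with adult liver above bone marrow (0 as reported). A 2-fold rule gave 2 with fetal liver above bone marrow and 2 with adult liver above bone marrow (0 and 0 as reported), and an 8-fold rule gave 1 with fetal liver above adult liver. Of the single differences, 280 stayed on their side of 4-fold, 8 newly passed 4-fold, 7 no longer did and none that passed turned direction, and the cause was not tested. Over all genes, calls between fetal and adult liver split 1704 to 2013 as reported, 2360 to 1594 without scaling, 2524 to 1524 with spike-ins and 1099 to 1473 with normexp. Between fetal liver and bone marrow normexp gave 863 to 835. Between bone marrow and adult liver the split was 2136 to 2676 as reported, 5590 to 1296 without scaling and 9264 to 877 with spike-ins. No paired analysis was possible because each tissue has 1 array and no test was run. Signals near background, those of Flt3 in both livers and of Ly6a in fetal liver above all, limit what can be said of dim members.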
